A study of Mus musculus with 4 samples.

Results

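Interferon-high fibroblasts of the mouse thoracic aorta were defined as fibroblast-gated cells in which at least 4 of 8 interferon-stimulated genes gave at least 1 UMI. A UMI (unique molecular identifier) counts 1 captured transcript. The fibroblast gate asked for at least 10 UMIs of Dcn and Lum together, at most 1 UMI of the smooth muscle gene Myh11, and fewer than 10 UMIs of the phagocyte genes Lyz2, C1qa and C1qb together. The 8 genes were Ifit1, Ifit3, Isg15, Irf7, Iigp1, Usp18, Xaf1 and Oasl2. The rule found 319 cells among 5040 gated cells and 38316 cells in all. They are compared below with the 3153 gated cells in which none of the 8 genes was seen, called interferon-none cells. Another 1568 gated cells carried 1 to 3 of the genes.

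The study asked what STING, an adaptor protein of DNA sensing, contributes in the aorta during infusion of AngII (angiotensin II, a hormone that raises blood pressure). Each of the 4 groups was 1 library of the thoracic aortas of 3 pooled mice, captured with 10x Genomics 3′ chemistry after removal of periaortic fat, enzyme digestion and a sort for viable cells. The KO AngII library came from mice lacking Sting in the whole body, fed a high fat diet for 5 weeks and infused with AngII for 7 days. The WT AngII library came from wild-type mice given the same diet and infusion. The KO saline and WT saline libraries came from Sting knockout and wild-type mice on normal diet with saline. AngII below therefore stands for infusion and diet together, which cannot be told apart, and neither can a genotype or treatment and its library. With 1 library per group no difference has a replicate check and no p-value is given. Intervals are 95% and cover counting error only.

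Type I interferons signal through a shared receptor to the kinases JAK1 and TYK2, which switch on a complex of transcription factors that includes STAT2 and IRF9. This complex binds the interferon-stimulated response element in the promoters of antiviral genes, among them Isg15 and the Ifit genes. STING lies upstream: when cGAS meets DNA in the cytosol, STING passes the signal to the kinase TBK1 and the factor IRF3, which can start production of interferon-β. Fibroblasts of the adventitia, the outer coat of the artery, make collagen and respond to interferon as most cells do.

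Promoters of 3 rule genes and of Rsad2 are shown because they hold the letters of this element. That of Mmp3 is shown as an example without them, as most promoters are. The sequences below are the 250 bases before and 50 bases after the transcription start, from RefSeq on GRCm38.p6, read 5′ to 3′ along the gene. Capitals mark every match to the core of the response element, the letters GAAA, any 2 bases and GAAA again, searched on both strands. Isg15 lies on the minus strand of chr4:156200769-156201068 and holds 3 overlapping matches, the first starting 78 bases before the start of transcription. Ifit1 (chr19:34640639-34640938, plus strand) and Ifit3 (chr19:34583279-34583578, plus strand) hold 2 matches each. Rsad2 (chr12:26456403-26456702, minus strand) holds 1, and Mmp3 (chr9:7445572-7445871, plus strand), a gene that was lower in the interferon-high cells, holds none.
Isg15: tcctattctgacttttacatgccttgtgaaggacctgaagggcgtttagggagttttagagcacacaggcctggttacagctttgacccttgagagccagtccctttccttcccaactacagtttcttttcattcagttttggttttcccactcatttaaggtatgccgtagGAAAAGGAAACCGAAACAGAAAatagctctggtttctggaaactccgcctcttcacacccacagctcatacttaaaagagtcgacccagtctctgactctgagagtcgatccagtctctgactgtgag
Ifit1: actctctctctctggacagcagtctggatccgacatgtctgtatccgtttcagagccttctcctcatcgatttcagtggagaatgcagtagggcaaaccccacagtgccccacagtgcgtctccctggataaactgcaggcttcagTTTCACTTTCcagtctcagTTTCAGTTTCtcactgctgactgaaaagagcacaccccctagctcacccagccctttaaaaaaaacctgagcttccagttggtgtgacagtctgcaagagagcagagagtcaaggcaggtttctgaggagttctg
Ifit3: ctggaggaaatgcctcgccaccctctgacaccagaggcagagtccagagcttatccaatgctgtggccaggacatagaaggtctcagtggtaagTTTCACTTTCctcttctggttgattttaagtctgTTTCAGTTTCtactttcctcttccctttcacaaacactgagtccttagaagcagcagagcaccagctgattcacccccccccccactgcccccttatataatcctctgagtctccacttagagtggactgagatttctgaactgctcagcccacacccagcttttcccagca
Rsad2: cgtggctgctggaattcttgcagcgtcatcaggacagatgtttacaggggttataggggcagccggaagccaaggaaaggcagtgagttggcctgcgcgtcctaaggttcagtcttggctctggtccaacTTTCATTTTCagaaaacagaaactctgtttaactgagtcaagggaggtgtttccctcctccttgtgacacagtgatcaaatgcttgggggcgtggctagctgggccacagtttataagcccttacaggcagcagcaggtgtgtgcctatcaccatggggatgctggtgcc
Mmp3: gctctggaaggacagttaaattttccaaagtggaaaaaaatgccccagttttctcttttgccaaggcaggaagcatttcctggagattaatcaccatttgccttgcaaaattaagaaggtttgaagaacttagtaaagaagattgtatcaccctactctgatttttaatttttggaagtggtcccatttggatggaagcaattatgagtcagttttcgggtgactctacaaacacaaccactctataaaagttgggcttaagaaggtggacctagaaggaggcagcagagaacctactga

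Of the 8 rule genes, 6 had a promoter in the table and 3 of these 6 held the motif. Irf7, Xaf1 and Oasl2 had no match in this window. Among the 56 other genes at least 2-fold higher in interferon-high cells of both WT libraries (described below), 46 had a promoter and 20 of them, or 43.5%, held the motif. The motif was found in 3.87% of the 12443 genes of the files with a promoter and in 3.44% of all 32851 promoters of the table. None of the 8 genes lower in both libraries held it, which beside 3.87% of all genes does not set them apart. The MHC class I list held it in 5 of the 17 genes with a promoter and the collagen list in 0 of 11 such genes. The progenitor-like fibroblast list held it in 2 of 11 (18.2%) and the activated fibroblast list in 1 of 9 (11.1%). A second set of letters, TTC, any 3 bases and GAA, was searched in the same way. It was found in 11 of the 46 genes (23.9%), in 0 of the 6 rule genes and in 8.47% of the 12443 genes. A match is a description of letters and not of a bound site.

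Libraries differed in depth. Total UMIs were 94698727 in KO AngII, 90581097 in WT AngII and 76841976 in KO saline, with 60064038 in WT saline. Gated fibroblasts had a median of 11760 UMIs in KO AngII, 9064 in WT AngII and 3878 in KO saline, with 3602 in WT saline. Tmem173, the gene of STING, gave 12.5 CPM (counts per 1000000 UMIs of the same cells) in gated fibroblasts of KO AngII, 15.4 in WT AngII and 10.9 in KO saline, with 6.88 in WT saline. Tags come from the 3′ end of a transcript, and the sources do not say which stretch of the gene the knockout alters, so these levels do not check the genotype labels. Pairs of libraries shared 92 to 148 cell barcodes, and no shared barcode was an interferon-high cell in both libraries of a pair.

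Interferon-high cells were most frequent in WT AngII. They made up 16 of 1851 gated cells in KO AngII (0.864%, exact binomial interval 0.495 to 1.40%) and 247 of 1672 in WT AngII (14.8%, interval 13.1 to 16.6%). In the saline libraries they made up 13 of 505 gated cells in KO saline (2.57%, interval 1.38 to 4.36%) and 43 of 1012 in WT saline (4.25%, interval 3.09 to 5.68%). The intervals of the AngII libraries lay far apart, and those of the saline libraries overlapped. KO AngII had the lowest share although its gated cells were the deepest of the 4 libraries.

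**Figure D1:**
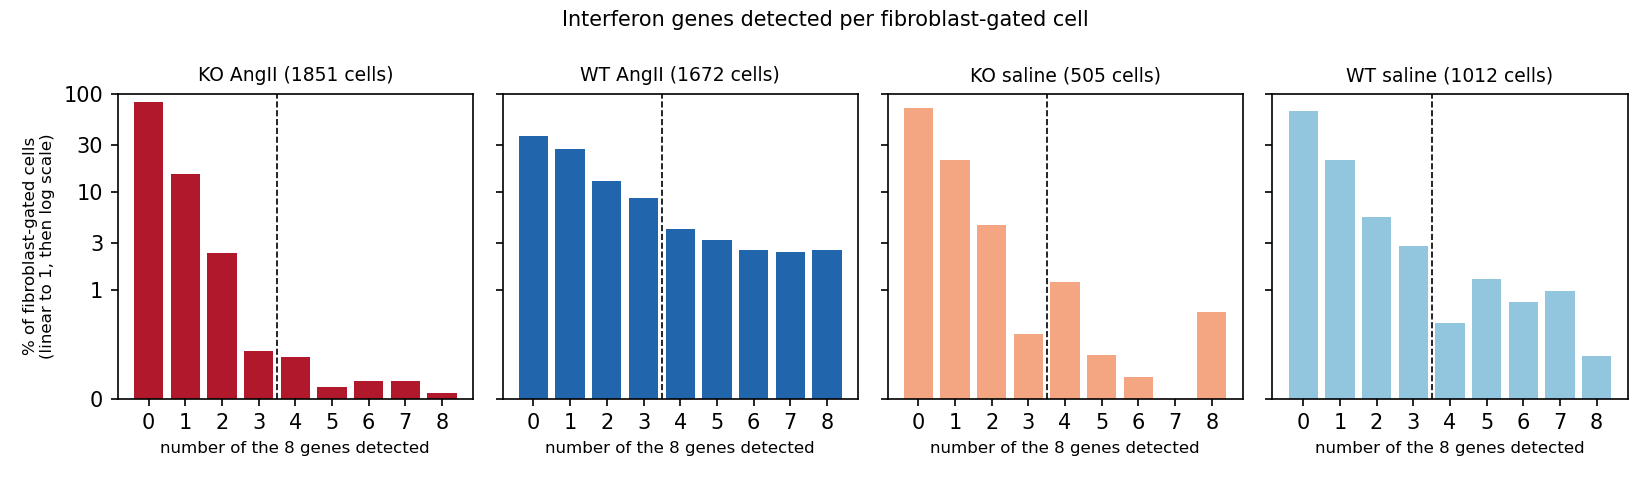
Percent of fibroblast-gated cells (vertical axis, linear up to 1 and logarithmic above) by the number of the 8 interferon genes with at least 1 UMI (horizontal axis), for KO AngII, WT AngII, KO saline and WT saline. The dashed line marks the threshold of 4 genes; 0.864% of KO AngII cells and 14.8% of WT AngII cells lie to its right.

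Detection of 8 low genes depends on depth, so every gated cell was also thinned to 3000 UMIs, leaving out 172 cells of KO saline and 352 of WT saline that had fewer. The share was then 0.270% in KO AngII (interval 0.0878 to 0.629%) and 5.02% in WT AngII (4.03 to 6.18%). It was 1.5% in KO saline (0.489 to 3.47%) and 3.94% in WT saline (2.59 to 5.72%). At equal depth the intervals of WT AngII and WT saline overlapped, while that of KO AngII still lay below that of WT AngII. Cells with none of the 8 genes formed 93.8% of thinned cells in KO AngII, 60.9% in WT AngII and 76.0% in KO saline, with 67.4% in WT saline.

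The members sat at the end of a continuous scale. In KO AngII 8 gated cells carried 3 of the genes and 7 carried 4, in WT AngII 143 and 70, in KO saline 3 and 6, and in WT saline 28 and 7. All 8 genes were seen in 1 cell of KO AngII, 42 of WT AngII, 4 of KO saline and 4 of WT saline. Members were deeper than interferon-none cells in every library. Their median UMIs were 18522 against 11758 in KO AngII, 11672 against 7945 in WT AngII, 8336 against 3359 in KO saline, and 4948 against 3224 in WT saline. Interferon-none cells matched to members on total UMIs served as an alternative, given where it changes a result.

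The same count of genes was taken in phagocyte-gated and smooth-muscle-gated cells. At least 4 of the 8 genes were seen in 6 of 472 phagocyte-gated cells of KO AngII (1.27%) and 116 of 614 of WT AngII (18.9%), and in 4 of 60 of KO saline (6.67%) and 28 of 241 of WT saline (11.6%). Phagocytes and fibroblasts therefore had the same order of libraries. In smooth-muscle-gated cells the share was 0.0710% in KO AngII, 0.365% in WT AngII and 0.0353% in KO saline, with 0.270% in WT saline. Smooth-muscle-gated cells had median depths of 8615, 10632, 7835 and 7389 UMIs in this order of libraries, so their low shares were reached at depths near or above those of the gated fibroblasts except in KO AngII. Summed over the 8 genes, smooth-muscle-gated cells held 8.50, 24.0, 15.4 and 21.8 CPM, against 36.8, 476, 159 and 302 CPM in gated fibroblasts.

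**Figure D2:**
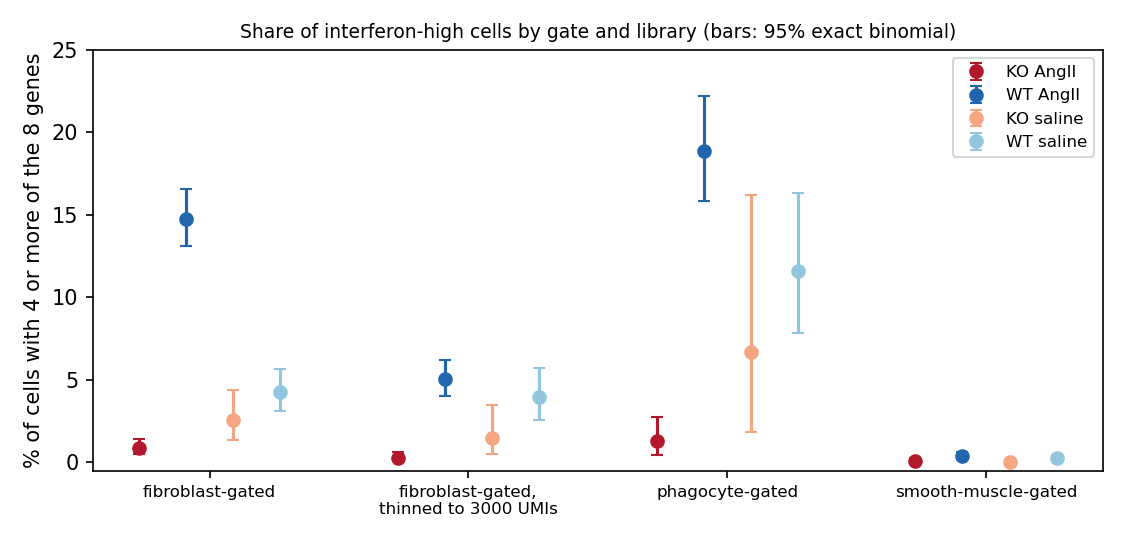
Percent of cells with at least 4 of the 8 interferon genes (vertical axis) in 4 sets of cells (horizontal axis) of KO AngII, WT AngII, KO saline and WT saline, with 95% exact binomial bars. WT AngII is highest in each set; in fibroblasts thinned to 3000 UMIs it stands at 5.02% and WT saline at 3.94%, with overlapping bars.

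The cells carried the markers of fibroblasts. All 319 members had at least 3 of 10 fibroblast markers, as did all 3153 interferon-none cells. The 10 markers include Dcn and Lum of the gate, so this count was largely set by the gate and does not check it. Pdgfra, a receptor of mesenchymal cells outside the gate, stood at 62.2, 96.0, 168 and 230 CPM in members of KO AngII, WT AngII, KO saline and WT saline. In interferon-none cells of the same libraries it stood at 56.7, 102, 175 and 247 CPM. Markers of T and NK cells, 5 of which were in the files, were at 0 UMIs in members of all libraries. At least 3 of 12 phagocyte markers were seen in 1 of 16 members of KO AngII (6.25%) and 18 of 247 of WT AngII (7.29%), and in none of the members of either saline library. In interferon-none cells the shares were 5.58% in KO AngII, 2.59% in WT AngII and 0.836% in KO saline, with 0% in WT saline. Such counts of markers, here and below, can rise with depth, and members were deeper in every library. The part of depth was not tested. The 12 genes summed to 51.8, 76.0, 8.84 and 19.9 CPM in members of KO AngII, WT AngII, KO saline and WT saline. In interferon-none cells they summed to 89.45, 96.0, 27.8 and 53.1 CPM, so their level was lower in members. No member had more than 6 UMIs of the 12 phagocyte genes together. At least 3 of 10 smooth muscle genes, some of which fibroblasts also express, were seen in 16 of 16, 205 of 247, 11 of 13 and 31 of 43 members of KO AngII, WT AngII, KO saline and WT saline. Among interferon-none cells the shares were 92.8%, 73.6%, 89.7% and 59.6%. The 10 genes summed to 2085.5, 1271, 1415 and 1689 CPM in members and to 2413, 1354, 7025 and 1847 CPM in interferon-none cells. At least 3 of 6 pericyte genes were seen in 5 of 16, 34 of 247, 0 of 13 and 5 of 43 members (31.3%, 13.8%, 0% and 11.6%). The interferon-none cells of these libraries had them in 17.0%, 11.2%, 6.13% and 1.04%, so the shares were higher in members except in KO saline. Summed, the pericyte genes stood at 252, 306, 212 and 350 CPM in members and 223, 391, 337 and 266 CPM in interferon-none cells. Their level was lower in members of WT AngII and KO saline and higher in those of WT saline. In KO AngII the interval of the ratio included 0. The part of these transcripts in the results was not tested. The marker genes named for the cells themselves (Isg15, Ifit3, Ifit1, Irf7 and Usp18) are genes of the rule and do not check it.

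A few members also carried endothelial genes. At least 3 of 9 endothelial genes were seen in 0 of 16 members of KO AngII, 3 of 247 of WT AngII, 0 of 13 of KO saline and 1 of 43 of WT saline. The cell of WT saline held 105 endothelial UMIs, and its 21785 UMIs were 8.66% of all member UMIs of that library. Egfl7, Cd93, Tinagl1 and Ctla2a, which endothelial cells express, and Adar, an RNA-editing enzyme, counted as higher in both WT libraries with these 4 cells and not without them. Ctla2a, named by the rule for named genes, had a log2 ratio of 2.68 in WT AngII with them and −2.03 without them. The counts of genes at least 2-fold apart and the values of Postn, Tmem173 and the MHC class II genes are given below with and without them.

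The rule genes themselves are described without a fold, since interferon-none cells have 0 UMIs of them by choice. Isg15, a ubiquitin-like protein that is attached to other proteins, was seen in 15 of 16 members of KO AngII, 224 of 247 of WT AngII, 9 of 13 of KO saline and 33 of 43 of WT saline. Its level in members was 414, 637, 531 and 397 CPM in this order. Ifit1, which binds foreign RNA caps, reached 476, 372, 416 and 719 CPM. These levels did not fall into the order of the shares: members of KO AngII, the library with the fewest members, had Ifit1 CPM above members of WT AngII.

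That KO AngII value came largely from 1 cell. A single member held 111 of the 138 Ifit1 UMIs of KO AngII members and 192 of their 441 UMIs of the 8 genes. The median member of KO AngII had 6.13 UMIs of the 8 genes per 10000 UMIs, against 12.02 in WT AngII and 11.1 in KO saline, with 22.8 in WT saline. The highest member reached 81.0, 164, 58.8 and 165 per 10000 UMIs in these libraries. Usp18, which removes ISG15 from proteins and dampens the receptor, was seen in 6 of 16 members of KO AngII, 130 of 247 of WT AngII, 9 of 13 of KO saline and 33 of 43 of WT saline. Xaf1, an apoptosis-linked protein, was seen in 15 of 16, 186 of 247, 11 of 13 and 29 of 43 members.

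Most Isg15, Ifit1 and Ifit3 transcripts of gated fibroblasts lay in the members. Of the gated UMIs of Isg15, members held 55.0% in KO AngII, 82.9% in WT AngII and 68.2% in KO saline, with 70.4% in WT saline. For Ifit3, another IFIT protein of the antiviral response, the shares were 64.4%, 86.7%, 61.1% and 69.0%. Irf7, the factor that amplifies type I interferon production, was less concentrated, with 35.3%, 58.9%, 37.8% and 33.0%. Xaf1 was the most spread in KO AngII, where members held 17.1% of it, and stood at 52.8%, 31.8% and 28.6% in WT AngII, KO saline and WT saline. Since the rule counts detection of these genes, the shares describe the members and support nothing further.

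Over all gated fibroblasts, members or not, the 8 genes were lower in KO AngII than in WT AngII. Isg15 stood at 8.996 CPM in KO AngII and 140 CPM in WT AngII (log2 ratio −3.96, interval −4.17 to −3.76). Irf7 stood at 3.51 and 66.1 CPM (−4.24, −4.57 to −3.92), and Iigp1, a GTPase that attacks the vacuoles of intracellular parasites, at 1.73 and 33.9 CPM (−4.29, −4.78 to −3.84). The smallest of the 8 differences was that of Xaf1, at 7.96 and 36.7 CPM (−2.20, −2.44 to −1.97).

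The saline libraries did not show such a gap for every gene. Isg15 had 35.6 CPM in KO saline and 34.9 CPM in WT saline (log2 ratio 0.03, interval −0.37 to 0.42), and the intervals of Irf7 and Xaf1 also included 0. Ifit1 was lower in KO saline, at 25.9 CPM, against 62.4 CPM in WT saline (−1.27, −1.69 to −0.87), as were Ifit3 (−1.71), Usp18 (−1.63), Iigp1 (−1.54) and Oasl2 (−0.79). Of the 8 genes 5 were higher in WT AngII than in WT saline. These were Isg15 (log2 ratio 2.01, interval 1.76 to 2.26), Irf7 (1.39, 1.09 to 1.69), Iigp1 (0.68, 0.36 to 1.03), Oasl2 (0.43, 0.13 to 0.73) and Ifit1 (0.36, 0.16 to 0.56). Usp18 was lower (−0.36, −0.68 to −0.04), and Ifit3 (−0.19, −0.37 to 0.01) and Xaf1 (0.09, −0.17 to 0.37) had intervals that included 0. In the KO libraries all 8 genes were lower with AngII, by log2 ratios of −1.74 (Xaf1) to −2.88 (Usp18).

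Genes outside the rule followed the number of rule genes detected. The 98 other interferon genes of the lists were summed in gated cells sorted by how many of the 8 genes they carried. In WT AngII the sum was 4642 CPM in cells with 0 of the 8, 7731 CPM with 3, 9249 CPM with 4 and 16057 CPM with all 8. In WT saline it was 4418 CPM with 0, 6884 CPM with 3, 9198 CPM with 4 and 13665 CPM with 7, and 8415 CPM in the 4 cells with all 8. With each added gene the sum was higher up to 8 genes in WT AngII and up to 7 in WT saline.

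In KO AngII the sums lay lower than in the other libraries at 0 to 4 genes. The sum was 3313 CPM with 0 of the 8 genes, 5926 CPM in the 8 cells with 3, and 5537 CPM in the 7 cells with 4. The cells of KO saline had 4444 CPM with 0, 7780 CPM in 6 cells with 4 and 13238 CPM in 4 cells with all 8. The intervals of KO AngII and WT AngII did not overlap at 0, 1, 2, 3 or 4 genes. Gated cells of KO AngII were deeper than those of WT AngII at each of these numbers. Their median UMIs were 11758 against 7945 at 0 genes and 15098 against 9563 at 3 genes. The same number of detected genes thus does not mean the same level, and the part of depth was not tested. The 20 genes of MHC class I presentation, which display peptides to CD8+ T cells, summed to 1456 CPM with 0 of the 8 genes and 2069 CPM with 4 in KO AngII. In WT AngII they summed to 3220 and 5508 CPM, in KO saline to 2980 and 3593 CPM, and in WT saline to 2985 and 4816 CPM.

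**Figure D3:**
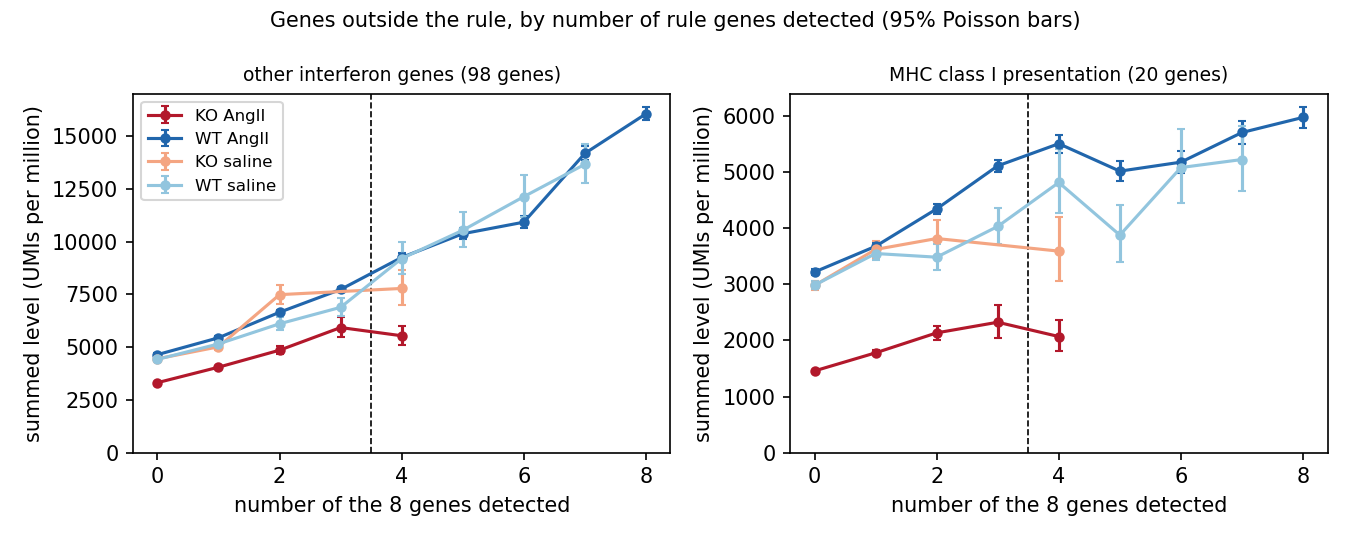
Summed level in CPM (vertical axes) of 98 interferon genes outside the rule (left) and 20 MHC class I genes (right) in gated cells with 0 to 8 of the rule genes (horizontal axes), with 95% Poisson bars; points with fewer than 5 cells are not drawn. The WT AngII line climbs to 16057 CPM at 8 genes on the left, and the KO AngII line lies below the other libraries on both sides.

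Members were next set against interferon-none cells gene by gene in the libraries with at least 20 members, WT AngII and WT saline. A gene counted as higher or lower when it had at least 20 UMIs over both sets of cells, a ratio of at least 2-fold and a counting interval that did not reach 0. These values describe how cells chosen by 8 interferon genes differ elsewhere. In WT AngII 223 of 10868 genes were higher (2.05%) and 120 lower (1.1%), and in WT saline 245 of 8634 were higher (2.84%) and 190 lower (2.2%). Of the 8583 genes that could be compared in each library, 64 were higher in both (0.746%) and 8 lower in both (0.0932%). The 64 included the 8 rule genes and 48 other genes of the lists, nearly all of interferon lists. Without the cells with endothelial genes, 213 genes were higher and 123 lower in WT AngII, and 200 higher and 170 lower in WT saline. There were then 61 genes higher in both, 59 of them among the 64, and 5 of the 8 stayed lower. With interferon-none cells matched on total UMIs, where 3413 genes could be compared in WT saline, 27 were higher in both, 25 of them among the 64.

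**Figure D4:**
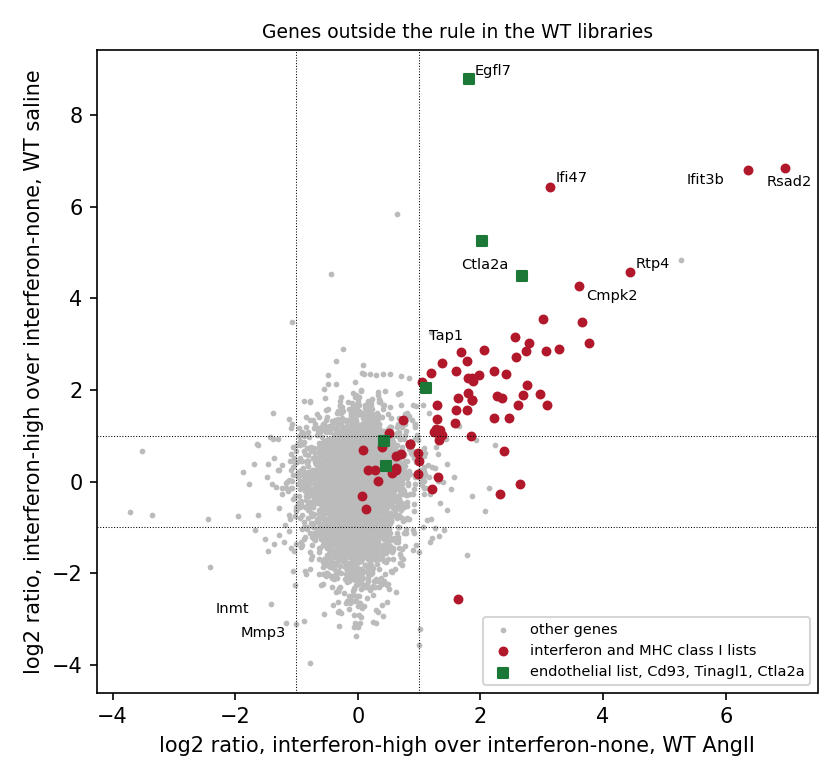
Log2 ratio of interferon-high over interferon-none cells for each comparable gene outside the rule, in WT AngII (horizontal axis) and WT saline (vertical axis); red points are genes of the interferon and MHC class I lists, green squares endothelial genes with Cd93, Tinagl1 and Ctla2a, and dotted lines mark 2-fold. Rsad2 (6.96 in WT AngII, at the bound for 0 UMIs in WT saline), Ifit3b and Rtp4 lie at the upper right.

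The genes farthest apart outside the rule were antiviral genes. Rsad2 encodes viperin, which makes a nucleotide that stops viral polymerases. It stood at 100.1, 89.1, 35.4 and 143 CPM in members of KO AngII, WT AngII, KO saline and WT saline, and at 0.203, 0.715, 1.29 and 0 CPM in interferon-none cells. Its log2 ratio was 6.96 in WT AngII (interval 5.59 to 8.85), and in WT saline it was at least 115-fold higher in members, counting 0 UMIs as 3. Against the 43 interferon-none cells matched on depth, which set a lower bound of their own, the WT saline value was 3.501 on the log2 scale. Few members carried it, since Rsad2 was seen in 3 of 16, 54 of 247, 2 of 13 and 13 of 43.

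Cmpk2, the neighbour of Rsad2 and a nucleotide kinase, stood at 34.5, 39.1, 35.4 and 119 CPM in members, against 0.710, 3.22, 6.47 and 6.22 CPM in interferon-none cells. Rtp4, which the type I response induces, stood at 96.7, 143, 168 and 207 CPM in members and at 1.98, 6.61, 7.11 and 8.71 CPM in interferon-none cells. Its log2 ratio was 4.43 in WT AngII (3.95 to 4.96) and 4.57 in WT saline (3.81 to 5.37). Members were higher than interferon-none cells in all 4 libraries for these 3 genes. Ifit3b, a near copy of Ifit3 with which it may share reads, reached 51.8, 103, 142 and 278 CPM in members.

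The antiviral effector list held 32 of 35 comparable genes at least 1.5-fold higher in WT AngII, where 3.85% of all genes were, and 23 of 27 in WT saline, where 4.19% were. No gene of the list was lower, against 2.7% and 3.28% of all genes. These shares are the background of each list count below in these libraries. The list medians were 1.79 in WT AngII and 1.83 in WT saline on the log2 scale, beside 0.00 over all comparable genes in both libraries. Bst2, which tethers budding virus to the cell surface, stood at 352, 752, 407 and 409 CPM in members of KO AngII, WT AngII, KO saline and WT saline, and at 48.3, 206, 102 and 119 CPM in interferon-none cells. It was seen in 241 of 247 members of WT AngII. Ifi27l2a, a small interferon-induced protein, had log2 ratios of 1.79 and 1.93 in WT AngII and WT saline, Phf11d of 2.78 and 3.03, and Sp110, a nuclear body protein, of 2.58 and 2.72. Ifitm3, which blocks viral entry at endosomes, had log2 ratios of 1.25 and 1.08 in WT AngII and WT saline.

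Interferon-induced GTPases, proteins that act on the vacuoles of intracellular pathogens, had list medians of 3.29 in WT AngII and 3.08 in WT saline. All 9 comparable genes were higher in WT AngII and all 6 in WT saline, beside the same 3.85% and 4.19% of all genes. Gbp3 stood at 53.8 CPM in members of WT AngII and 3.93 CPM in interferon-none cells (log2 ratio 3.77), and at 43.7 and 5.39 CPM in WT saline (3.02). Irgm1 had log2 ratios of 3.29 and 2.90, and Irgm2 of 3.01 and 3.55, in the same libraries. Gbp7 had 2.56 and 3.15, and Ifi47 3.13 and 6.43, which were 2.24 for Gbp7 and 2.50 for Ifi47 in WT saline against depth-matched cells. Igtp, with 50.0 CPM in members and 2.15 CPM in interferon-none cells of WT AngII, had a log2 ratio of 4.54. Members of these families have near copies, between which counting may split reads.

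Transcription factors of the pathway differed among themselves. Stat2 and Irf9, which act together in the type I response, had log2 ratios of 1.87 and 1.86 in WT AngII and of 1.79 and 2.26 in WT saline. Irf9 stood at 27.6, 41.6, 61.9 and 71.5 CPM in members of KO AngII, WT AngII, KO saline and WT saline, and at 5.53, 11.4, 10.3 and 14.9 CPM in interferon-none cells. Irf1, which interferon-γ induces strongly, had 97.6 CPM in members and 88.7 CPM in interferon-none cells of WT AngII (log2 ratio 0.14, −0.07 to 0.35) and 39.7 and 60.6 CPM in WT saline (−0.61, −1.70 to 0.31). Stat2 and Irf9 were thus higher in members of both WT libraries, and the intervals of Irf1 included 0 in both.

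Sensors of RNA and DNA were higher in 12 of 13 comparable genes in WT AngII (median 2.39) and in 4 of 9 in WT saline (median 1.39, 1 lower), where 3.85% and 4.19% of all genes were higher. Zbp1, a sensor of Z-form nucleic acids, stood at 63.2 CPM in members and 5.01 CPM in interferon-none cells of WT AngII (log2 ratio 3.66) and at 55.6 and 4.98 CPM in WT saline (3.48). Ifih1, the RNA sensor MDA5, had ratios of 2.61 and 1.67, and Ddx58, the RNA sensor RIG-I, of 1.80 and 2.26. Genes of the p200 family of DNA-binding proteins varied. Ifi203 had ratios of 2.47 in WT AngII and 1.39 in WT saline (interval −0.21 to 2.73), and Mnda of 2.39 and 0.67 (−0.72 to 1.84). Ifi205 stood at 39.4 CPM in members and 12.7 CPM in interferon-none cells of WT AngII (1.63, 1.20 to 2.08), but at 3.97 CPM, from 1 UMI, and 23.6 CPM in WT saline (−2.57, −7.90 to −0.04). Mndal had 2.64 in WT AngII and −0.06 in WT saline, and Ifi204 2.32 and −0.26, with intervals that included 0 for both genes in WT saline.

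Enzymes that attach ISG15 or ubiquitin were higher in 12 of 13 comparable genes in WT AngII and 9 of 10 in WT saline, with medians of 1.97 in each. Ube2l6, the enzyme that conjugates ISG15, stood at 121, 113, 212 and 99.3 CPM in members of KO AngII, WT AngII, KO saline and WT saline, and at 29.5, 37.5, 55.6 and 40.7 CPM in interferon-none cells. Rnf213, a giant ubiquitin ligase linked to the arterial disease moyamoya, had log2 ratios of 3.06 in WT AngII and 2.84 in WT saline. Herc6, the ligase for ISG15 in mice, had 82 UMIs in members of WT AngII but 5 in members of WT saline, with ratios of 3.08 (2.31 to 3.92) and 1.67 (−0.14 to 3.21).

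MHC class I presentation was higher by less. The list median was 0.98 in WT AngII, with 16 of 20 genes at least 1.5-fold higher, and 0.62 in WT saline, with 6 of 17. Tap1, which pumps peptides into the endoplasmic reticulum, stood at 40.3 CPM in members and 9.65 CPM in interferon-none cells of WT AngII (2.06, 1.59 to 2.55), and at 39.7 and 5.39 CPM in WT saline (2.88, 1.53 to 4.18). B2m, the light chain of class I molecules, stood at 1053, 2823, 1636 and 2372 CPM in members of KO AngII, WT AngII, KO saline and WT saline, against 697, 1738, 1343 and 1564 CPM in interferon-none cells. MHC class II genes had 0 of 6 comparable genes higher and 2 lower in WT AngII, with a median of 0.07. These values depended on the WT AngII cells with endothelial genes. Without those cells the log2 ratios were −1.91 for H2-Eb1, −1.80 for H2-Aa, −1.15 for Cd74 and −0.92 for H2-Ab1. H2-DMa then had −0.05 and H2-DMb1 0.35.

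The list of interferon-induced chemokines and other ligands had 5 of 6 comparable genes at least 1.5-fold higher in members of WT AngII (median 2.69) and 0 of 2 in WT saline. The 2 genes of WT saline were Il15 and Csf1, neither of them a chemokine, so no chemokine of the list could be compared there. Cxcl9, which draws T cells and follows interferon-γ, had 307 UMIs in 31 of 247 members of WT AngII and 8 UMIs in 6 of 617 interferon-none cells (96.0 and 1.43 CPM, log2 ratio 6.07, interval 5.07 to 7.29). Members of KO AngII had 6 UMIs in 2 cells, those of KO saline 0 and those of WT saline 1. Cxcl10, a partner at the same receptor, had 312 UMIs in 45 members of WT AngII and 207 UMIs in 53 interferon-none cells (1.40, 1.14 to 1.66). Both transcripts were seen together in 14 members of WT AngII and in 0 interferon-none cells. Only 6 of those interferon-none cells carried Cxcl9, so the 0 cannot show that the pair was particular to members. Among the 1506 interferon-none cells of KO AngII, 11 carried Cxcl9, 144 carried Cxcl10 and 4 carried both. Members of KO AngII had 16 Cxcl10 UMIs in 3 cells, those of KO saline 10 in 2, and those of WT saline 0. Ccl5 had 156 UMIs in members of WT AngII, but in only 7 cells, against 15 UMIs in interferon-none cells. Cd274, the checkpoint ligand PD-L1, had 18 UMIs in 15 members of WT AngII and 2 UMIs in interferon-none cells (3.98, 1.91 to 7.13).

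None of 10 comparable receptor and feedback genes was at least 1.5-fold higher in WT AngII (median 0.01) and none of 9 in WT saline, where Socs3 and Ifngr2 were lower (median −0.23). Ifngr2, a chain of the interferon-γ receptor, had log2 ratios of 0.26 in WT AngII (interval −0.02 to 0.53) and −1.18 in WT saline (−2.65 to −0.02), the second from 6 UMIs in members. Ifnar2, a chain of the type I receptor, stood at 63.5 CPM in members and 73.8 CPM in interferon-none cells of WT AngII (log2 ratio −0.22, interval −0.47 to 0.03), and at 115 and 105 CPM in WT saline (0.13, −0.47 to 0.69). Socs3, a feedback inhibitor induced by IL-6 signalling, was lower in members, with ratios of −0.58 in WT AngII and −1.26 in WT saline, which were −0.40 and −0.31 against depth-matched interferon-none cells. The STING pathway list had 2 of 9 genes higher in WT AngII (median 0.31) and 3 of 8 in WT saline (median 0.66). By the mean of both WT libraries its highest genes were Ifi35, an interferon-induced protein, with ratios of 1.88 in WT AngII and 2.19 in WT saline, and Samhd1, which depletes nucleotides, with 1.38 and 1.02. Ifi35 and Samhd1 were the 2 genes higher in WT AngII. Both also belong to the antiviral effector list and were counted there. Trim56, a ubiquitin ligase, had 0.06 in WT AngII (−0.44 to 0.55) and 1.997 in WT saline (1.17 to 2.78). These counts stand beside the 3.85% and 4.19% of all genes that were higher in these libraries. Tmem173 had 0.31 in WT AngII (−0.19 to 0.81) and 1.49 in WT saline (−0.30 to 2.99), which was 0.89 without the cell with endothelial genes. Ifnb1, the gene of interferon-β and the only interferon ligand of the list in the files, had 0 UMIs in gated cells of all 4 libraries, which allows up to 0.152, 0.211, 1.49 and 0.906 CPM in KO AngII, WT AngII, KO saline and WT saline.

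Among fibroblast programmes outside the interferon response, progenitor-like adventitial genes had a median of 0.41 in WT AngII, with 4 of 14 genes higher, where 3.85% of all genes were, and of 0.05 in WT saline, with none, against 4.19%. Ly6a, the surface antigen Sca-1, stood at 1198, 2856, 3741 and 1923 CPM in members of KO AngII, WT AngII, KO saline and WT saline, and at 781, 1346, 1346 and 1298 CPM in interferon-none cells. It was higher in members of all 4 libraries. Interferon is known to raise Ly6a in mice, and the source of the difference here was not tested. Pi16, which marks adventitial progenitor-like fibroblasts, had log2 ratios of 0.44, 0.72, −1.18 and −0.01 in these libraries and so had no shared direction.

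The collagen list had medians of −0.28 in WT AngII (0 higher and 1 lower of 15) and −0.27 in WT saline (1 higher and 4 lower of 14), where 2.7% and 3.28% of all genes were lower. Col1a1 stood at 7120, 7078, 1406 and 822 CPM in members of KO AngII, WT AngII, KO saline and WT saline, and at 8195, 8664, 1378 and 2448 CPM in interferon-none cells. Activated fibroblast genes had a median of −0.07 in WT AngII, with 2 higher and 0 lower of 15, and of 0.26 in WT saline, with 2 higher and 3 lower of 11. Spp1, osteopontin, was higher in members of both, with log2 ratios of 0.84 in WT AngII and 2.26 in WT saline. Postn, periostin, a matrix protein, had 0.07 in WT AngII and 2.37 in WT saline, the second being 0.96 without the cell with endothelial genes. Cthrc1, a secreted protein of activated adventitial fibroblasts, stood at 1677 CPM in members and 1477 CPM in interferon-none cells of WT AngII (log2 ratio 0.18), where 210 of 247 members carried it.

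Inflammatory genes went different ways in the libraries. In WT AngII the inflammatory fibroblast list had a median of 0.10 with 6 genes higher and 3 lower of 21, and in WT saline one of −1.11 with 0 higher and 9 lower of 17. Of all genes 3.85% were higher and 2.7% lower in WT AngII, and 4.19% higher and 3.28% lower in WT saline. Ccl2 and Ccl7, chemokines that draw monocytes, had ratios of 1.01 and 0.99 in WT AngII. In WT saline members had 0 UMIs of both, against 266 and 343 UMIs in interferon-none cells. Those UMIs lay in few cells, since Ccl2 was seen in 1.94% and Ccl7 in 3.73% of the interferon-none cells of WT saline. In KO AngII members both were lower than in interferon-none cells, with ratios of −0.56 and −0.37. Complement genes had a median of 0.05 in WT AngII and −1.43 in WT saline, and immediate early genes, which respond to stress and dissociation, one of −0.15 and −0.87.

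The genes at least 2-fold lower in members of both WT libraries were few. Those described here were named by how far their intervals ended from 0, and Il6, Cxcl12, Gdf10 and Tgfbi did not reach 2-fold in WT AngII. Tnnt2, Nr4a2 and Pax1 also reached 2-fold in both libraries. Mmp3, a matrix protease, stood at 114, 130, 203 and 59.6 CPM in members of KO AngII, WT AngII, KO saline and WT saline, and at 132, 262, 264 and 511 CPM in interferon-none cells. Its log2 ratio was −1.01 in WT AngII and −3.10 in WT saline, and without the cells with endothelial genes it was −0.99 in WT AngII, just under 2-fold. Inmt, a methyltransferase of resting fibroblasts, had −1.42 (−2.24 to −0.67) and −2.67 (−3.38 to −2.03), and Fbln7, a matrix protein, −1.16 and −3.09. Il6 stood at 66.9 CPM in members and 123 CPM in interferon-none cells of WT AngII (−0.88), and at 7.95 CPM, from 2 UMIs, and 65.1 CPM in WT saline (−3.04, −6.09 to −1.16). The chemokine Cxcl12 had −0.56 and −2.23. Gdf10, a TGF-β family ligand, had −0.92 and −1.42, Tgfbi, a matrix protein, −0.77 and −1.69, and F3, tissue factor, −1.13 and −1.07. Hoxa7, a homeobox factor, had −1.06 in WT AngII and 0 UMIs in WT saline members, at least 3.86-fold lower. These differences were smaller against depth-matched cells: −0.68 and −1.82 for Mmp3, −0.30 and −0.20 for Gdf10, −0.80 for Fbln7 in WT AngII, and −1.19 for Inmt, −0.83 for Tgfbi and −1.49 for Cxcl12 in WT saline. F3 was then −0.54 in WT AngII, and its direction turned to 0.57 in WT saline. Without depth matching, members were lower in both WT libraries for all 9 genes, while in KO AngII the intervals of Mmp3, Fbln7 and Inmt included 0.

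Members of WT AngII were then set against members of WT saline. Among 9079 comparable genes, 443 reached a 2-fold higher level in WT AngII members (4.88%) and 633 a 2-fold lower one (6.97%), and TMM scaling, which moved the median of all genes to 0.13 from −0.08, gave 659 higher and 416 lower. Without the cells with endothelial genes 417 were higher and 621 lower. The 43 members of WT saline and their lower depth limit every value here. Ccl7 and Ccl2 had 3146 and 3076 UMIs in members of WT AngII against 0 in those of WT saline. Counting 0 UMIs as 3, they were 82.5-fold and 80.7-fold higher. Both genes lay in few interferon-none cells of WT saline, so 0 UMIs in its 43 members is a weak bound. In interferon-none cells the log2 ratios, WT AngII over WT saline, were 1.80 (1.64 to 1.96) and 2.11 (1.93 to 2.30). In members Cthrc1 stood at 1677 and 43.7 CPM (log2 ratio 5.26, interval 4.42 to 6.26). Col8a1, a short-chain collagen, had 1982 and 3 UMIs (5.70, 4.15 to 7.98) and Thbs1, thrombospondin-1, 1411 and 1 (6.80, 4.31 to 12.10).

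Genes lower in WT AngII members included Galnt15, a glycosyltransferase, at 7.19 CPM against 246 CPM in WT saline members (−5.10, −5.86 to −4.39). Cldn5, Egfl7 and Igf2 were also among the 5 lowest, with 21, 46 and 27 UMIs in WT saline members. Without the WT saline cell with endothelial genes all 3 genes had 0 UMIs there. Galnt15 kept its direction without it, at −5.27.

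The rule genes differed in direction within members. Isg15 was higher in members of WT AngII, at 637 CPM, against 397 CPM in members of WT saline (log2 ratio 0.68, interval 0.39 to 0.98), as was Irf7 (0.66, 0.16 to 1.20). Ifit1 (−0.95, −1.18 to −0.72), Ifit3 (−1.42, −1.64 to −1.19), Usp18 (−1.43, −1.84 to −1.01) and Iigp1 (−0.84, −1.22 to −0.44) were lower in WT AngII members. Over all gated cells, by contrast, Ifit1 and Iigp1 were higher in WT AngII. Members of WT AngII had a median of 11672 UMIs, against 4948 UMIs in WT saline, and the part of depth in these levels was not tested. Sensor genes had a median of 1.08, with 5 of 12 genes at least 1.5-fold higher and 0 lower, where 6.95% of all genes were higher and 9.9% lower. Among them, Mndal (3.12, 1.25 to 6.18) and Ifi204 (1.65, 0.27 to 3.55) rested on 2 and 4 UMIs in WT saline members.

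Fibroblast programmes were compared between WT AngII and WT saline in members and, beside them, in interferon-none cells. Activated fibroblast genes had a median of 1.996 in members, with 11 of 15 at least 1.5-fold higher, and of 2.97 in interferon-none cells, with 13 of 15, where 11.9% of all genes were higher and 18.3% lower. Collagen genes had medians of 1.19 and 1.57, unfolded protein response genes 1.35 and 1.47, and inflammatory genes 2.09 and 1.80, in members and interferon-none cells. Resting fibroblast genes had a median of −0.28 in members (3 higher and 5 lower of 14) and −1.27 in interferon-none cells (1 higher and 12 lower of 15). Complement genes had 0.32 in members (2 higher and 2 lower of 8) and −0.91 in interferon-none cells (0 higher and 5 lower of 9). The differences between both sets of cells were not tested. Col3a1 stood at 13253 CPM in WT AngII members and 1975 CPM in WT saline members (log2 ratio 2.75), and had a ratio of 2.32 in interferon-none cells. Postn had ratios of 2.17 in members and 4.48 in interferon-none cells, and in WT saline it stood at 290 CPM in members and 56.0 CPM in interferon-none cells. Most of the 73 Postn UMIs of WT saline members lay in the cell with endothelial genes, and without it 25 UMIs (109 CPM) gave a ratio of 3.61 in members. The list of interferon-induced chemokines and other ligands had a median of 1.03 over 6 genes in members. The lists of GTPases, IFIT and OAS genes, transcription factors, antiviral effectors, ISG15 and ubiquitin enzymes and MHC class I lay between −0.53 and 0.24.

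**Figure D5:**
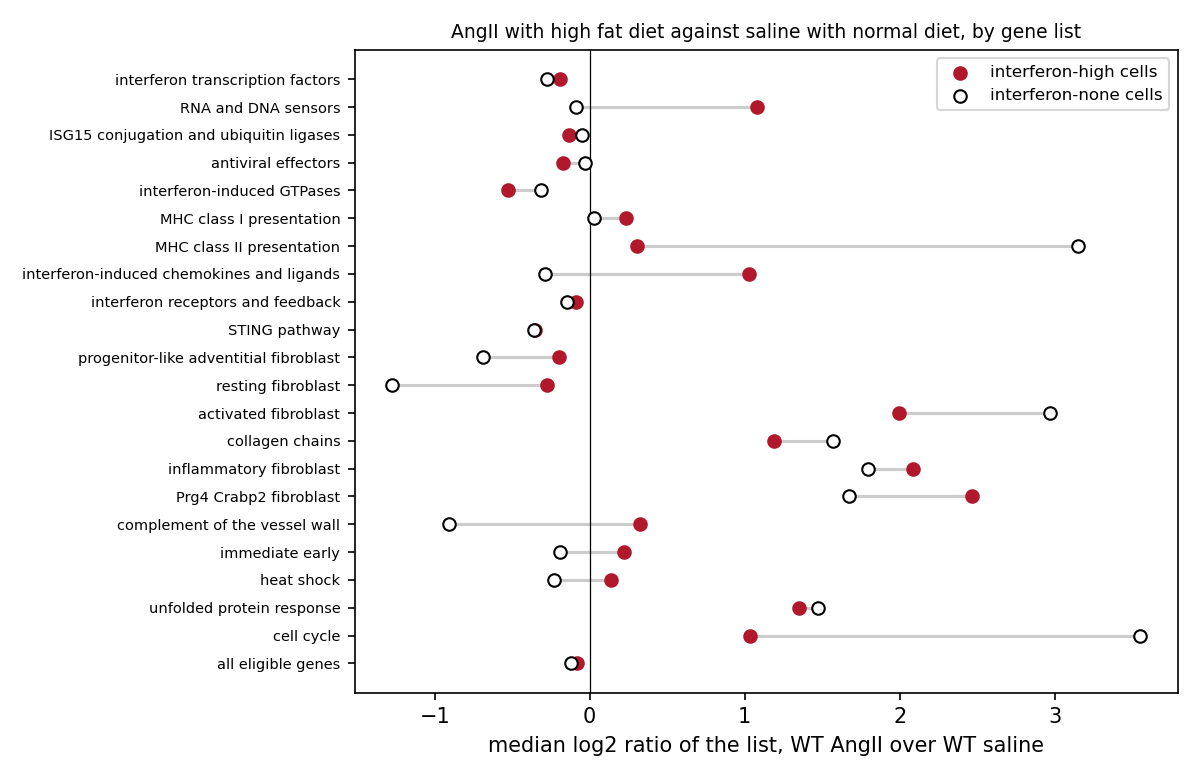
Median log2 ratio of WT AngII over WT saline (horizontal axis) for each gene list with at least 3 comparable genes (rows), in interferon-high cells (red) and interferon-none cells (open circles). Activated fibroblast genes stand at 1.996 and 2.97, and sensor genes at 1.08 and −0.09.

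The KO libraries had 16 and 13 members, too few for a gene by gene comparison, so summed lists are given for them. GTPase genes summed to 290 CPM in members and 17.5 CPM in interferon-none cells of KO AngII (log2 ratio 4.05, interval 3.69 to 4.40), and to 195 and 58.8 CPM in KO saline (1.73, 0.98 to 2.41). Antiviral effectors summed to 6187 and 3028 CPM in KO AngII (1.03) and to 8932 and 3950 CPM in KO saline (1.18). The corresponding ratios were 1.25 in WT AngII and 1.23 in WT saline. Members of the KO libraries thus differed from interferon-none cells in the same direction as those of the WT libraries for both lists. MHC class I genes summed to 2369 and 1456 CPM in KO AngII (0.70, 0.59 to 0.81) and to 3785 and 2980 CPM in KO saline (0.35, 0.20 to 0.49).

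Interferon-none cells of KO AngII were also lower in interferon genes than interferon-none cells of WT AngII. Antiviral effectors had a median log2 ratio of −0.81, with 18 of 32 genes at least 1.5-fold lower and 0 higher, where 14.2% of all genes were lower and 6.52% higher. ISG15 and ubiquitin enzymes had a median of −1.44 (9 of 12 lower) and MHC class I genes of −0.92 (13 of 19 lower), beside −0.07 over all genes. In the saline libraries the same comparison gave medians of −0.02 for antiviral effectors (0 of 28 lower), 0.24 for the ISG15 and ubiquitin enzymes and 0.34 for MHC class I genes, where 6.99% of all genes were lower and 9.65% higher. The lower interferon transcripts of KO AngII were therefore also measured in cells in which no rule gene was seen. Detection of the rule genes depends on depth, so their absence is a stricter condition in deeper cells. Median UMIs of interferon-none cells were 11758 in KO AngII against 7945 in WT AngII. In the saline libraries they were 3359 in KO saline against 3224 in WT saline. The part of depth in the AngII difference was not tested. Genotype and library cannot be told apart here, and the WT AngII library also enters the comparison with WT saline above.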

How the data were processed

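Single-cell 3′ RNA libraries of mouse thoracic aorta were analysed, 1 per group, each of 3 pooled mice. Raw UMI counts per gene and cell were used as deposited by the authors; Cell Ranger and mm10 are named per the submitters' processing notes. Files held 17524 genes and 38316 cells, with 1753 or more UMIs in every cell. Cells were gated on raw counts. Counts were summed per library and set of cells, divided by summed UMIs (CPM) and compared as log2 ratios with exact conditional intervals, or exact Poisson and binomial ones for levels and shares. Intervals cover counting error only, and pooled mice give no replicates. Genes needed 20 UMIs over both sets, and libraries 20 members. Lists used a 1.5-fold limit. A count of 0 was set to 3 UMIs for bounds. Thinning drew 3000 UMIs per cell. No doublet caller was run; limits in the gate and an alternative without the top 5% of cells by UMIs were used instead.

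Members and lists were chosen with earlier results of these data known. Outside the 8 rule genes and the gate genes, the text names the 15 higher and 10 lower genes whose intervals ended farthest from 0 in the WT library where they ended nearest, list members, and the 5 genes farthest each way between WT members. Some of these are not reported here. Other genes were chosen after their values were seen. Promoters are from RefSeq, GRCm38.p6. The comparison was tested on simulated sums with Poisson counts and no spread between cells. It therefore does not check the intervals where UMIs lay in few cells. Tools were Python 3.11.15 with numpy 2.4.6, scipy 1.17.1, pandas 2.3.3 and matplotlib 3.10.9. Alternatives changed the threshold of rule genes, the gate, the UMI minimum, scaling, depth matching and thinning.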

Additional observations from a re-analysis of the deposited data

Results flagged for a closer look

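Between AngII and saline the KO and WT libraries moved in opposite directions for the share of interferon-high cells and for 5 of the 8 rule genes over all gated fibroblasts. The differences between genotypes were not tested, since each group is 1 library. The log2 ratio of the share, AngII over saline, was −1.57 in KO and 1.80 in WT, a difference of −3.37. At equal depth the shares had overlapping intervals in both genotypes, at 0.270% in KO AngII (0.0878 to 0.629%) and 1.5% in KO saline (0.489 to 3.47%), and at 5.02% in WT AngII and 3.94% in WT saline. Isg15 had log2 ratios of −1.98 in KO and 2.01 in WT, a difference of −3.99. For Irf7 they were −2.38 and 1.39, a difference of −3.76. Iigp1 had −2.07 in KO and 0.68 in WT, a difference of −2.75. Oasl2 had −2.20 and 0.43, a difference of −2.63. Ifit1 had −2.01 and 0.36, a difference of −2.36.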

How the results depend on the processing

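No paired analysis was possible because each group is 1 library and no sample shares a replicate with another. KO against WT interferon-high cells were not compared gene by gene, since the KO libraries held under 20. Besides the values below, 217 values of single genes and 233 of the others kept their direction and size within the limits used, and 30 values of single genes moved in size without turning. Asking for 5 of the 8 genes gave shares of 0.486% in KO AngII and 10.6% in WT AngII, and asking for 3 gave 23.3% in WT AngII and 7.02% in WT saline. Thinning gave 0.270% in KO AngII and 5.02% in WT AngII. With at least 50 UMIs, fewer genes could be compared: 57 were lower in WT AngII, 134 higher in WT saline and 26 higher in both WT libraries. Against interferon-none cells matched on depth, which left 43 such cells in WT saline, 111 genes were higher and 105 lower there, with 27 higher and 3 lower in both. F3 then reversed to 0.57 in WT saline, and the endothelial list had a mean median of 1.35; the cause was not tested. Leaving out cells with endothelial genes, an alternative chosen after seeing the data, left 5 genes lower in both libraries. It reversed Ctla2a in WT AngII to −2.03, as did asking for 5 genes (−2.20). TMM scaling gave 416 lower genes in WT AngII members against WT saline members. With 1 of the WT libraries left out, called genes ranged over 223 to 245 higher and 120 to 190 lower. List medians ranged over −1.08 to 0.23 for resting, −1.11 to 0.10 for inflammatory, −1.43 to 0.053 for complement and 1.13 to 3.48 for endothelial genes. Depth limits detection of the rule genes most in the saline libraries.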
